A study of Mus musculus with 9 samples.

Results

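The 10 genes described here encode subunits of the BAF and PBAF chromatin remodelers and were chosen by name, as Smarca4, Smarca2, Smarcb1, Smarcc1, Smarcc2, Smarce1, Arid1a, Arid1b, Arid2 and Brd7. All 10 were found among the 28052 genes counted in growing mouse oocytes, and all 10 passed the filter on low counts that left 10993 genes for testing. Transcripts of Smarca2 were the most abundant of them in every sample. In the main fit of all 9 samples, Smarce1 was the only member that differed between genotypes at an unadjusted p below 0.05. It was lower in XX and in XY than in XO oocytes, and in that fit it did not pass adjustment for all genes tested. Neither call held without the sample XO3, with limma or with scaling to spike-in totals. More members were called without the sample XO1, or with a surrogate variable as a covariate. The authors' own test had such covariates, and the main fit here did not. For XX against XO, Smarca2 and Smarce1 passed adjustment both without XO1 and with the covariate.

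BAF complexes, the mammalian SWI/SNF remodelers, use ATP to slide or evict nucleosomes and so open chromatin at promoters and enhancers. Each complex holds a single ATPase, BRG1 from Smarca4 or its paralog BRM from Smarca2, on a core of scaffold subunits, whereas ARID1A or ARID1B marks the canonical BAF complex and ARID2 with BRD7 the PBAF complex. In the mouse, oocytes store BRG1 for the embryo, and embryos from oocytes without it arrest early in cleavage with impaired zygotic genome activation.

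Transcripts were counted in 9 samples, 3 each from XX, XO and XY females at 18 days postpartum, and each sample pooled 30 growing oocytes, of which 10 measured 50–55 μm and 20 measured 55–60 μm. XY females carry the Y chromosome of B6.YTIR, which fails to start testis development on the C57BL/6 (B6) background, and they were littermates of the XX females from crosses of B6.YTIR males with B6 females. XO females came from Paf carrier males, a line started on C3H/HeSnJ and backcrossed to B6. The different cross therefore cannot be told apart from the second X chromosome in XX against XO, or from the Y chromosome in XY against XO. The labels give the strain of all samples as C57BL/6, and the methods describe the samples as biological triplicates without saying how many females gave the oocytes of a pool.

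Transcripts were counted by the unique molecular identifier (UMI) that Smart-seq3 adds to their 5′ ends, which collapses PCR copies. Samples had 2130145 to 3157338 gene UMIs. Levels are given as normalized CPM, which are UMIs divided by the gene total of the sample and by a factor that the authors derived from ERCC spike-in RNAs. On this scale the median log2 difference of all tested genes was -0.46 for XX against XO, -0.19 for XX against XY and -0.30 for XY against XO. When the factor was taken from the genes themselves (trimmed mean of M values, TMM), these medians were -0.11, -0.01 and -0.13, and both scales are therefore given. When counts were instead scaled to the spike-in total of each sample, the medians were 0.42, 0.49 and -0.11. The direction of XX against the other genotypes over all genes thus depended on the scaling. The 10 oocyte markers were present in all samples, with sums of 22954 to 26437 normalized CPM in XX, 9665 to 39329 in XO and 14653 to 24875 in XY pools. The paper names XX1, XO2 and XY1 as less like their other replicates. Here the sample XO1, which is the XO column without a number, stood apart. Its mean Spearman coefficient with the other XO samples was 0.646, it was most like XY1 at 0.932, and these 2 samples had the highest mitochondrial shares of UMIs, 13.1% and 10.8%, against 2.65 to 6.02% in the others. For the 10 members, calls that change without XO1 are given with and without it. In pools of oocytes, fewer expressing cells and less RNA per cell cannot be told apart.

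RefSeq promoters (GRCm38.p6, from 250 bases before to 50 after a transcript start) were available for 8 of the 10 genes, 9 promoters in all because Arid1a has 2. All 9 held the GC box GGGCGG on either strand, which 35.7% of 32851 mouse promoters of this length hold. The core of the NRF1 motif, TGCGCA, was found in 3 of them, those of Smarca4, Smarcc1 and Smarcb1, and in 7.76% of all promoters. None of the 9 held TATAAA (13.6% of all promoters), CCAAT (37.4%) or CACGTG (7.15%), each searched on both strands. The member promoters were rich in CpG, with 22 to 48 CpG each against a median of 7 over all promoters. The promoters of both ATPase genes and of the other genes with TGCGCA are shown 5′ to 3′ on the strand of the gene, since the first are the catalytic pair and the latter share the rarer motif. Capitals mark the GC box, the TGCGCA core and their reverse complements.
Smarca2 promoter, chr19:26604910-26605209, plus strand, GRCm38.p6: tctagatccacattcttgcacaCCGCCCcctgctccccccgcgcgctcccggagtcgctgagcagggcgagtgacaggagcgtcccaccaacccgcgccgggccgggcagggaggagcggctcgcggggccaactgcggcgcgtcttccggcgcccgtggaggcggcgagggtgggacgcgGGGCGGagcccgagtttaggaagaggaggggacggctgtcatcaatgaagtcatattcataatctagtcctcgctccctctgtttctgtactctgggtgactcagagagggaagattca
Smarca4 promoter, chr9:21615919-21616218, plus strand, GRCm38.p6: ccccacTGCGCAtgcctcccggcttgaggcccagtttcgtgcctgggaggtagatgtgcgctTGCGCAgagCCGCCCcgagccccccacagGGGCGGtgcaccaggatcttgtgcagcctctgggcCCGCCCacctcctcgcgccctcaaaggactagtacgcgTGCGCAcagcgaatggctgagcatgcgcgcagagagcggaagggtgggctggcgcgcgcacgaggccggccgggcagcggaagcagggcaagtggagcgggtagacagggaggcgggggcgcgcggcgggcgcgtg
Smarcc1 promoter, chr9:110131774-110132073, plus strand, GRCm38.p6: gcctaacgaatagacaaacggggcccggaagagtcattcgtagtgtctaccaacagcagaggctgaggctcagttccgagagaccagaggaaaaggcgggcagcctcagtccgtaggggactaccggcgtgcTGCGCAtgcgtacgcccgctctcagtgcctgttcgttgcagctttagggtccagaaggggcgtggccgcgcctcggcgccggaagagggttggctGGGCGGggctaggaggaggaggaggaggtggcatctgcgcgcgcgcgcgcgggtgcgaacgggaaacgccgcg
Smarcb1 promoter, chr10:75921565-75921864, minus strand, GRCm38.p6: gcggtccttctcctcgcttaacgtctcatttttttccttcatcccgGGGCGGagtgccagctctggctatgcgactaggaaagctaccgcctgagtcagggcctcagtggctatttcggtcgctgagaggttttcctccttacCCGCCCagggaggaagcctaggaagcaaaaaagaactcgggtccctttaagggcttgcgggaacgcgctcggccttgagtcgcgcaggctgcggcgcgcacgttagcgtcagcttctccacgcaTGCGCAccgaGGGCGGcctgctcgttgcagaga
The TGCGCA core stands 3 times in the Smarca4 window and not in that of its paralog Smarca2, which has 2 GC boxes. A match in these windows is a description and not evidence of binding.

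Smarca2 (BRM, the alternative ATPase) is on chr19:26605050-26778322, plus strand. Its level was 219, 210 and 265 normalized CPM in XX1, XX2 and XX3, 203, 405 and 469 in XO1, XO2 and XO3, and 251, 306 and 432 in XY1, XY2 and XY3. The lowest and the highest of all samples were both XO on this scale, so that XO overlapped with either of the other genotypes, and XX also overlapped with XY. Under TMM the lowest was XO1 at 210 and the highest XY3 at 391, and all genotypes still overlapped. The means were 231 ± 29.2 in XX, 359 ± 139 in XO and 330 ± 92.8 in XY pools (SD, n = 3 each). None of the contrasts passed the test, with a log2 fold change of -0.63 ± 0.38 (SE) for XX against XO (edgeR quasi-likelihood test, unadjusted p = 0.127). Under TMM it was -0.22 (unadjusted p = 0.509). Without XO1 it was -0.92 on the authors' scale (unadjusted p = 0.0116, adjusted p = 0.0472) and -0.44 under TMM (unadjusted p = 0.146). Smarca2 supplied 7000 of the UMIs of the 10 genes, 54.5% of their sum over all samples and between 44.1% and 61.3% within a sample.

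Smarca4 (BRG1), on chr9:21616169-21704230, plus strand, was far less abundant. It gave 16.7, 9.80 and 8.53 normalized CPM in the XX, 12.9, 14.99 and 16.4 in the XO and 19.1, 16.9 and 15.1 in the XY samples, from 25 to 52 UMIs each. XX2 and XX3 were below all other samples, but XX1 lay within the XY range. The log2 fold change of XX against XY was -0.54 (95% interval -1.27 to 0.19, unadjusted p = 0.129), and that of XY against XO was 0.20.

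The UMI ratio of Smarca2 to Smarca4 within a sample does not depend on the scaling of samples. It was 13.1, 21.5 and 31.0 in the XX, 15.7, 27.0 and 28.6 in the XO and 13.2, 18.1 and 28.6 in the XY samples. The count of the Smarca2 gene, over all its transcript starts, thus exceeded that of Smarca4 in 9 of 9 samples. Per kb of annotated exon the ratio was 5.94 to 14.1. The ratio was lowest in the sample numbered 1 and highest in the sample numbered 3 of every genotype, and the genotypes overlapped. The mean log2 ratio was 4.36 ± 0.63 in XX, 4.52 ± 0.48 in XO and 4.24 ± 0.56 in XY pools, and no difference between genotypes passed the test (exact permutation test, two-sided, p = 0.6 to 0.8, where 3 against 3 samples cannot go below 0.1). Paired by replicate number, the log2 ratio of XY minus that of XO was -0.25, -0.58 and 0.00 to 2 decimals, with a mean of -0.28 (exact sign permutation test, two-sided, p = 0.25, the smallest that 3 pairs allow).

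**Figure D1:**
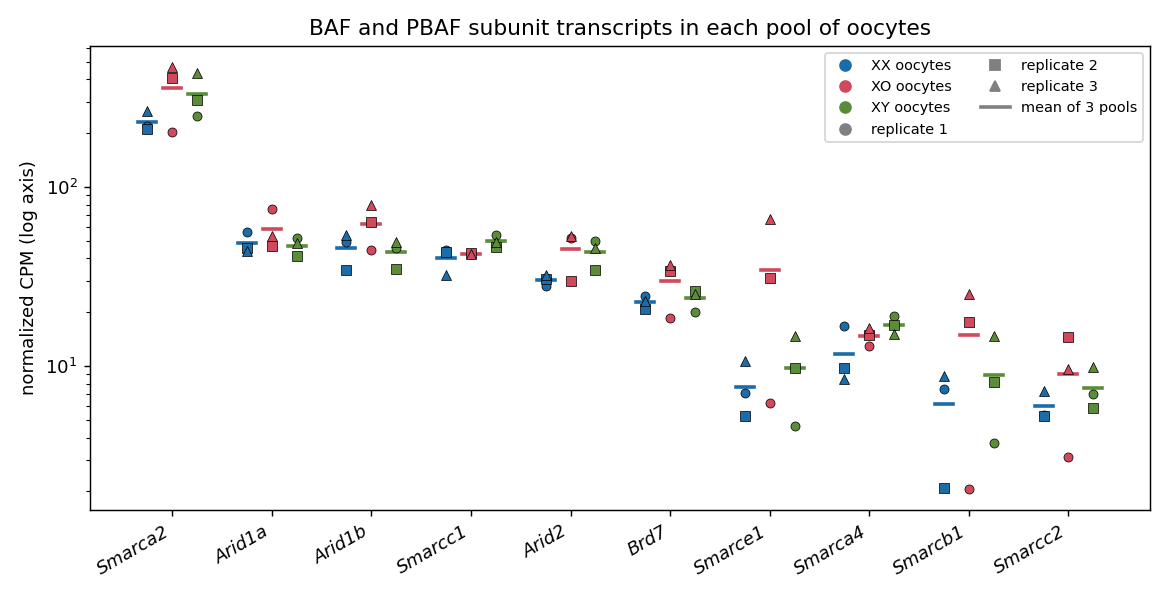
Normalized CPM (log axis) of the 10 genes in each of the 9 pools, with colour for genotype, shape for replicate number and bars for the mean of 3 pools. Smarca2 lies between 203 and 469 normalized CPM in the 9 pools, and Smarce1 and Smarcb1 spread most widely in XO oocytes.

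The annotation does not tell which Smarca2 transcript was counted. Of its 46 annotated transcripts in Gencode vM21, 4 start within 250 bases of the outermost start, whose promoter is printed above, whereas 17 start together 143 kb farther inside the gene, 15 of them protein-coding. The deposited counts give 1 value per gene, so these starts could not be separated. The excess of Smarca2 over Smarca4 is therefore one of gene counts, and the share of Smarca2 transcripts that span the whole gene is not known. Transcripts of Smarca4 do not spread in this way, as 3 of 4 share the outermost start. The antisense gene 4931403E22Rik overlaps an exon of Smarca2 on the opposite strand and had 3385 UMIs over all samples. The methods describe the alignment as stranded. The level of this gene was 113, 112 and 138 normalized CPM in the XX, 88.5, 180 and 221 in the XO and 105, 151 and 210 in the XY samples, and XO1 was the lowest of all samples for it as it was for Smarca2.

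Smarcc1 (BAF155) and Smarcc2 (BAF170) encode the paired scaffold on which the complex is assembled. Smarcc1, on chr9:110117708-110240178, gave 44.5, 43.4 and 32.3 normalized CPM in the XX, 42.5, 42.9 and 42.3 in the XO and 54.4, 46.2 and 49.2 in the XY samples. The XY samples were the 3 highest of all 9, while XX and XO overlapped. The log2 fold change was -0.32 ± 0.24 (SE) for XX against XY (unadjusted p = 0.222) and 0.23 ± 0.24 for XY against XO (unadjusted p = 0.37), so neither passed the test. On the TMM scale XY still lay above XO, at 44.5 to 53.9 against 32.3 to 43.9, but it overlapped with XX at 36.1 to 53.1.

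Smarcc2, on chr10:128459248-128490482, was the least abundant member, with 171 UMIs in all. It gave 5.34, 5.25 and 7.31 normalized CPM in the XX, 3.11, 14.5 and 9.60 in the XO and 6.97, 5.86 and 9.96 in the XY samples. The lowest and the highest value were again XO samples, and no contrast passed the test. The log2 UMI ratio of Smarcc2 to Smarcc1 was -2.75 ± 0.53 in XX, -2.49 ± 1.14 in XO and -2.75 ± 0.38 in XY pools (exact permutation test, p = 0.8 to 1).

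Smarce1 (BAF57, a subunit with an HMG box that binds DNA), on chr11:99209047-99231017, minus strand, differed most between genotypes. Its level was 7.12, 5.25 and 10.7 normalized CPM in XX1, XX2 and XX3, 6.21, 31.0 and 66.6 in XO1, XO2 and XO3, and 4.65, 9.77 and 14.8 in XY1, XY2 and XY3. XO2 and XO3 stood above all other samples, whereas XO1 lay among the XX and XY samples. In UMIs, these were 20, 15 and 35 in the XX, 12, 60 and 118 in the XO and 10, 30 and 49 in the XY samples. The means were 7.68 ± 2.75 in XX, 34.6 ± 30.4 in XO and 9.73 ± 5.07 in XY pools (SD, n = 3 each). The fitted level was 4.46-fold lower in XX than in XO oocytes (log2 fold change -2.16 ± 0.74 SE, unadjusted p = 0.0161, adjusted p = 0.214) and 3.49-fold lower in XY than in XO oocytes (log2 -1.80 ± 0.73, unadjusted p = 0.0337, adjusted p = 0.489) by the edgeR quasi-likelihood test. XX and XY did not differ at this threshold (log2 -0.35, 95% interval -2.0 to 1.29).

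The Smarce1 contrasts against XO passed on both scales, with log2 fold changes of -1.69 for XX (unadjusted p = 0.0296) and -1.52 for XY (unadjusted p = 0.0432) under TMM. They were larger without XO1, at -2.65 (adjusted p = 0.00432) and -2.28 (adjusted p = 0.0132). Neither was called with limma (unadjusted p = 0.0654 and 0.108) or with scaling to spike-in totals in edgeR (unadjusted p = 0.269 and 0.165). They rest on XO3, without which they were -1.27 (unadjusted p = 0.0983) and -0.91 (unadjusted p = 0.213). In edgeR, the call for XX was also lost without XX2 (unadjusted p = 0.056), and that for XY without XO2 (0.0527), XY1 (0.0993) or XY2 (0.0807). In the batch-regressed log2 values of the authors, the difference was -0.17 for XX against XO and -0.05 for XY against XO. Other properties of the XO samples went with the Smarce1 level. The oocyte markers summed to 9665 in XO1, 31979 in XO2 and 39329 in XO3. Of the blood, endothelial and immune markers, 4 of 10 were measured. They summed to 16.1, 110 and 134 normalized CPM in XO1, XO2 and XO3, 19.6 to 49.7 in XX and 27.0 to 59.2 in XY oocytes. Lyz2 was at 0 in all XO and XY samples, and Cd68 in all XX and XY samples. The sum of these markers was mostly Pecam1, which averaged 51.5 over the 9 samples, while Cdh5, Cd68 and Lyz2 each averaged at most 1.61. Granulosa cell markers, 9 of 12 measured, summed to 48.0 to 66.7 in XX, 55.9 to 67.2 in XO and 56.6 to 92.1 in XY pools. At 0 were Inha, Fst and Amhr2 in XX, Inha and Gja1 in XO and Fst in XY pools. Of the granulosa cell markers, Nr5a2, Cyp19a1 and Kitl averaged 30.9, 19.0 and 12.1 over the 9 samples, and every other measured one at most 1.52. Theca and stroma markers, 6 of 10 measured, summed to at most 8.55 in any sample. The part of these differences in the Smarce1 contrasts was not tested.

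Smarcb1 (BAF47, a core subunit that contacts the nucleosome), on chr10:75896769-75921617, minus strand, varied like Smarce1 between replicates. It gave 7.48, 2.101 and 8.84 normalized CPM in the XX, 2.07, 17.6 and 25.4 in the XO and 3.72, 8.14 and 14.8 in the XY samples. As for Smarce1, the sample numbered 3 was the highest of each genotype. XO1 was the lowest of all samples for Smarcb1. These levels came from 21, 6 and 29 UMIs in XX, 4, 34 and 45 in XO and 8, 25 and 49 in XY pools. The log2 fold change of XX against XO was -1.27 ± 0.82 (SE, unadjusted p = 0.152), and without XO1 it was -1.79 (unadjusted p = 0.0103, adjusted p = 0.0435). With TMM and without XO1 it was -1.31 (edgeR, unadjusted p = 0.0318, adjusted p = 0.108).

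Arid1a and Arid1b encode the alternative ARID subunits of canonical BAF. Arid1a, on chr4:133679008-133756769, minus strand, gave 56.3, 45.5 and 43.9 normalized CPM in the XX, 75.6, 47.0 and 53.1 in the XO and 52.1, 41.0 and 48.6 in the XY samples. In contrast to most members, its highest value was in XO1. Arid1b, on chr17:4994332-5347656, plus strand, gave 49.2, 34.7 and 54.2 in the XX, 44.5, 63.6 and 79.6 in the XO and 45.5, 34.8 and 49.5 in the XY samples, so that XO2 and XO3 were the highest of all 9 on this scale. Under TMM, XX3 at 60.6 lay between XO2 at 55.1 and XO3 at 60.8. No contrast of either gene passed the test. Without XO1, the log2 fold change of Arid1b was -0.64 for XX against XO (unadjusted p = 0.0472) and -0.72 for XY against XO (unadjusted p = 0.0273), neither of which passed adjustment. With TMM as well, these were -0.16 (edgeR, unadjusted p = 0.530) and -0.42 (unadjusted p = 0.114), and neither was called. The log2 UMI ratio of Arid1b to Arid1a was -0.09 ± 0.36 in XX, 0.09 ± 0.74 in XO and -0.13 ± 0.14 in XY pools.

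Arid2 and Brd7 encode subunits of PBAF. Arid2, on chr15:96287518-96404992, plus strand, gave 28.1, 30.8 and 32.3 normalized CPM in the XX, 51.8, 30.0 and 53.1 in the XO and 49.7, 34.5 and 45.6 in the XY samples. All XX samples were below all XY samples, on this scale and under TMM. The log2 fold change of XX against XY was -0.51 ± 0.30 (SE, unadjusted p = 0.12), so the difference did not pass the test. The log2 UMI ratio of Arid2 to Arid1a, which needs no scaling, was -0.67 ± 0.29 in XX, -0.40 ± 0.35 in XO and -0.14 ± 0.10 in XY pools. XX and XY did not overlap in it, with a difference of -0.53 (exact permutation test, two-sided, p = 0.1, the smallest that 3 against 3 samples allow, adjusted p = 0.96 over 12 comparisons of ratios). Brd7 (a bromodomain protein), on chr8:88331039-88362194, minus strand, gave 24.6, 21.0 and 23.2 in the XX, 18.6, 34.1 and 36.7 in the XO and 20.0, 26.4 and 25.4 in the XY samples. On this scale XO2 and XO3 were the highest and XO1 the lowest of all 9, and no contrast passed the test with all 9 samples. Under TMM, XY2 at 29.4 lay above XO3 at 28.0, and XO1 was still the lowest. Without XO1, the log2 fold change of Brd7 for XX against XO was -0.63 (edgeR, unadjusted p = 0.0344, adjusted p = 0.103). With TMM as well, it was -0.16 (edgeR, unadjusted p = 0.537).

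Levels of different genes were compared per kb of exon in the union of their annotated transcripts. Smarca2 led with a mean of 21.5 normalized CPM per kb over the 9 samples (range 14.2 to 32.8). It was followed by Smarcc1 at 5.64, Brd7 at 4.87, Arid1a at 4.48, Arid1b at 4.02 and Arid2 at 3.68. Smarce1 at 2.61, Smarca4 at 2.24, Smarcc2 at 1.36 and Smarcb1 at 1.26 came last. Smarca2 did not overlap with the next gene in this order, whose range was 4.12 to 6.94, whereas all further neighbours overlapped in their ranges over the 9 samples. Since a transcript gave 1 UMI whatever its length, division by length lowers the values of long transcripts.

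On the authors' scale, 1 of 10 members (Smarce1) was lower in XX than in XO oocytes at an unadjusted p below 0.05, as were 16.7% of all tested genes, and 0 were higher, as against 1.40% of all genes. For XX against XY, 0 of 10 members were lower and 0 higher, against 4.39% and 1.41% of all genes. For XY against XO, 1 of 10 (Smarce1) was lower and 0 higher, against 8.24% and 1.69% of all genes. With DESeq2, 1, 0 and 1 of the members were lower in these contrasts. After adjustment over all genes by Benjamini-Hochberg, 0 of 10 members passed in any contrast, where 0% of all genes passed for XX against XO, 0.0819% for XX against XY and 0.0364% for XY against XO. Groups did not overlap for 0 of 10 members in XX against XO, for 2 (Smarcc1 and Arid2) in XX against XY and for 1 (Smarcc1) in XY against XO, against 16.4%, 15.8% and 10.2% of all genes. Under TMM, groups did not overlap for 0 of 10 members in XX against XO (13.9% of all genes), for 1 (Arid2) in XX against XY (15.1%) and for 3 (Smarca4, Smarcc1 and Arid1b) in XY against XO (10.8%). With 10 members, these are small counts, from which nothing particular to the members was read.

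The direction of the members as a group depended on the scale, as did that of all genes. At an unadjusted p below 0.05, 154 of all tested genes were called higher in XX and 1832 higher in XO on the authors' scale, against 481 and 864 under TMM. For XX against XY these counts were 155 and 483 against 293 and 272, and for XY against XO they were 186 and 906 against 366 and 625. In XX against XO, all 10 fold changes were negative with a median of -0.50 on the authors' scale, beside -0.46 for all tested genes. Under TMM, 6 of 10 were negative with a median of -0.13, beside -0.11 for all genes. In the batch-regressed values, 2 of 10 were negative, with a median difference of 0.34. In these values 7 of 10 were negative for XX against XY (median -0.18) and 2 of 10 for XY against XO (median 0.50). For XX against XY the member medians were -0.35 on the authors' scale and -0.16 under TMM, and for XY against XO they were -0.28 and -0.07. Relative to the median of all genes, XX against XO ranged from -1.70 for Smarce1 to 0.37 for Smarcc1. The 3 contrasts share samples, so that their fold changes are not independent of each other.

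Without XO1, 6 of 10 members were lower in XX than in XO oocytes, namely Smarca2, Smarcb1, Smarcc2, Smarce1, Arid1b and Brd7, against 34.2% of the 11590 genes then tested. In XY against XO, 2 of 10 (Smarce1 and Arid1b) were lower, against 27.6% of all genes. Adjusted for all genes, 3 members (Smarca2, Smarcb1 and Smarce1) passed for XX against XO, as did 25.2% of all genes, and 1 (Smarce1) for XY against XO, as did 14.2%. When TMM was used as well, 2 members (Smarcb1 and Smarce1) were lower in XX than XO at the unadjusted threshold, against 21.9% of all genes, and 1 (Smarce1) in XY than XO, against 20.5%. After adjustment in that setting, 1 member (Smarce1) passed in each of these contrasts, as did 16.0% and 10.8% of all genes. Without both XO1 and XY1, 6 members were lower in XX and 2 in XY than in XO oocytes, beside 37.6% and 25.5% of all genes, and 1 was lower in XX than in XY, beside 11.9%.

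With 1 surrogate variable as a covariate in edgeR, Smarca2, Smarce1 and Arid2 were lower in XX than XO at an unadjusted p below 0.05 (32% of all genes), Smarca2 and Arid2 in XX than XY (17.4%), and Smarce1 in XY than XO (20.7%). Smarca2 then passed adjustment in XX against XO (log2 -0.41, adjusted p = 0.0302) and in XX against XY (log2 -0.51, adjusted p = 0.0163). Smarce1 did so in XX against XO (log2 -1.31, adjusted p = 0.00342) and in XY against XO (log2 -1.02, adjusted p = 0.0257), whereas Arid2 passed adjustment in neither contrast. With this covariate, 25.8% of all genes passed adjustment for XX against XO, 9.79% for XX against XY and 13.3% for XY against XO.

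**Figure D2:**
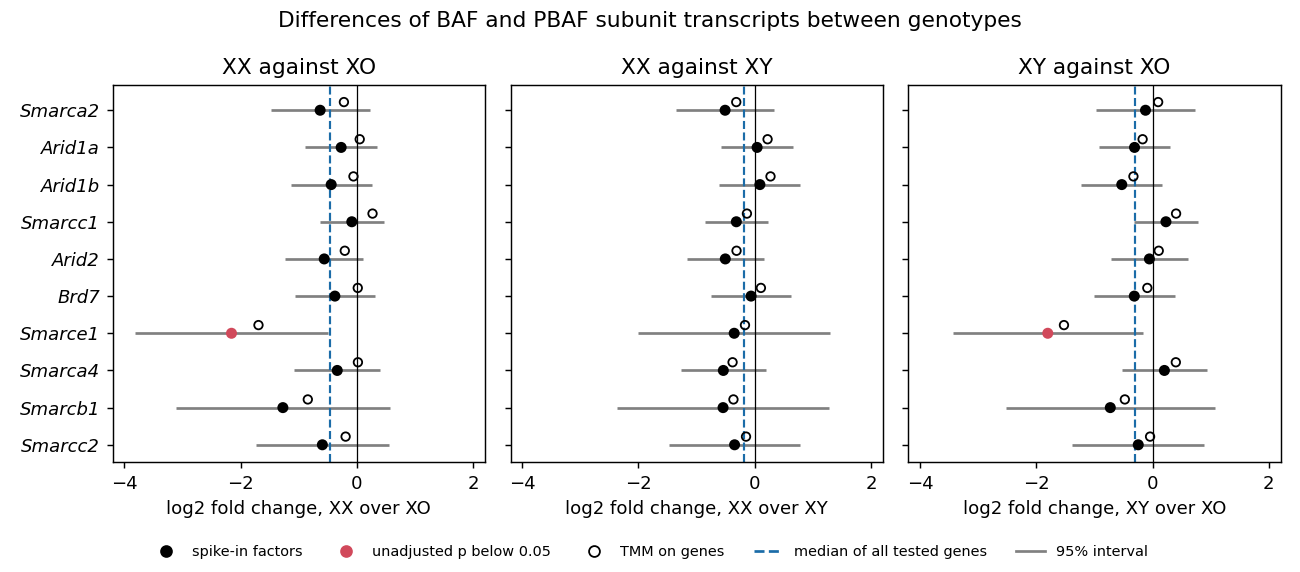
Log2 fold changes of the 10 genes in the 3 contrasts, as filled points with 95% intervals for the spike-in factors and open points for TMM on the genes. Red points have an unadjusted p below 0.05, and the dashed line is the median of all tested genes. Smarce1 is the only red point, at -2.16 for XX against XO and -1.80 for XY against XO.

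The members differed in how closely replicate pools resembled each other. The SD of log2 levels within genotypes was 0.16 for Smarcc1, and 1.75% of the tested genes had a smaller one. It was 0.25 for Arid1a, 0.31 for Arid2 and Smarca4, 0.33 for Brd7, 0.35 for Arid1b, 0.45 for Smarca2 and 0.66 for Smarcc2. Smarce1 with 1.11 and Smarcb1 with 1.303 were the most variable, and 87.4% and 91.5% of the tested genes had a smaller SD. The median over all tested genes was 0.55. The closeness of Smarcc1 in XO oocytes was a matter of scale, since its XO values of 42.3 to 42.9 normalized CPM became 32.3 to 43.9 under TMM. In XO1, Smarcb1 and Smarce1 deviated from the XO mean by -2.05 and -1.85 on the log2 scale, while Arid1a was 0.39 and Arid2 0.25 above. In XY1, which shared the high mitochondrial share, Smarcb1 and Smarce1 deviated by -0.96 and -0.86 from the XY mean, and Arid1a was 0.15 and Arid2 0.22 above. The part of the mitochondrial share in these deviations was not tested.

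**Figure D3:**
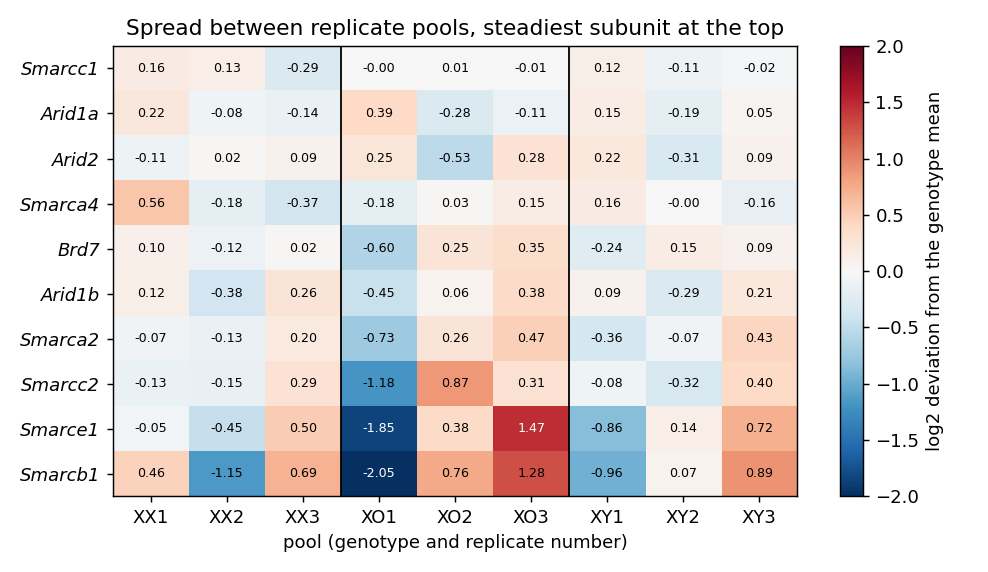
Deviation of each pool from the mean of its genotype, in log2 normalized CPM, with genes in rows from the smallest to the largest spread and pools in columns. XO1 and XY1 are low for Smarce1 and Smarcb1, whereas Smarcc1 deviates by at most 0.29 in any pool.

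Of 18 other SWI/SNF subunits, 12 were tested. Of these, Dpf3, Brd9 and Smarcd2 (3 genes) had lower levels in XX than in XO oocytes at an unadjusted p below 0.05, and 0 had higher ones. The shares of all tested genes were 16.7% and 1.40%. Dpf3 (a PHD finger subunit that binds modified histones) gave 9.26, 13.7 and 6.70 normalized CPM in the XX, 18.6, 30.0 and 53.6 in the XO and 23.2, 26.7 and 28.4 in the XY samples. All XX samples lay below all others, and Dpf3 was lower in XX than in XO (log2 -1.78 ± 0.43 SE, unadjusted p = 0.00211) and than in XY oocytes (log2 -1.40 ± 0.42, unadjusted p = 0.00829), neither of which passed adjustment. Brd9 (the bromodomain subunit of the noncanonical BAF complex) gave 7.12, 6.65 and 9.75 in the XX, 4.66, 39.3 and 54.8 in the XO and 7.90, 13.0 and 22.04 in the XY samples. Its XX level was lower than that of XO (log2 -2.06 ± 0.73, unadjusted p = 0.0186), with XO1 the lowest of all 9 as for Smarcb1. Smarcd2, named after its values were seen because its mean was 5.78 normalized CPM, was also the single member of this list lower in XY than in XO oocytes (8.24% of all tested genes). With the replicate number as a block, 2 were lower in that contrast, Smarcd2 and Phf10 (14.1% of all tested genes). Actl6a (the actin-related subunit BAF53A) averaged 85.7, 90.2 and 96.7 normalized CPM in XX, XO and XY oocytes, and Pbrm1 (the PBAF subunit BAF180) 19.6, 20.5 and 18.5, with no contrast passing the test.

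Among the other families of remodelers, 0 of 9 tested ISWI genes passed the test in any contrast, by an unadjusted p below 0.05 with edgeR. Of all tested genes, 16.7%, 4.39% and 8.24% were lower in XX than XO, XX than XY and XY than XO. In the same contrasts, 1.40%, 1.41% and 1.69% were higher. The ISWI ATPase gene Smarca5 averaged 81.5 ± 9.68 in XX, 119 ± 76.1 in XO and 80.6 ± 25.8 in XY pools. Its XO mean was raised by XO1 at 207, beside 72.9 in XO2 and 76.8 in XO3. Of 12 tested CHD and NuRD genes, 1 was lower in XX than in XO (Mbd2), 1 was higher in XX than in XY (Rbbp7) and 2 were lower in XY than in XO (Mbd2 and Chd9). Mbd2 (which binds methylated DNA) averaged 12.6 ± 3.88 in XX, 36.6 ± 24.4 in XO and 10.9 ± 4.42 in XY pools, with XO1 at 13.5. Rbbp7, an X-linked gene for a histone-binding subunit, averaged 225 ± 30.4, 150 ± 78.2 and 114 ± 28.6 (log2 of XX against XY 0.98 ± 0.39, unadjusted p = 0.0314). It was at 240 in XO1, beside 101 in XO2 and 108 in XO3. Its log2 fold change of XX against XO was 0.58 (edgeR, unadjusted p = 0.166), and 1.10 without XO1 (unadjusted p = 0.00351). Chd9 was at 232 ± 46.6 in XY and 389 ± 59.0 in XO oocytes (log2 -0.75 ± 0.29, edgeR unadjusted p = 0.029), but not past the threshold under TMM (unadjusted p = 0.0856). The NuRD ATPase gene Chd4 averaged 49.2, 47.1 and 52.4 in XX, XO and XY oocytes, with no contrast past the test.

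Of 12 tested genes of the INO80, SRCAP and EP400 remodelers, 1 was lower in XX than in XO oocytes (Ruvbl1), 1 lower in XX than in XY (Yeats4, with a mean of 6.87 normalized CPM and named after its values were seen) and 0 in XY than in XO. The shares of all tested genes were 16.7%, 4.39% and 8.24%. Ruvbl1, a helicase subunit of these complexes, gave 2.85, 2.45 and 5.18 normalized CPM in the XX, 1.55, 25.8 and 46.9 in the XO and 1.39, 3.26 and 15.1 in the XY samples. XO1 was again apart from XO2 and XO3. The log2 fold change of XX against XO was -2.79 ± 1.07 (unadjusted p = 0.0264), and with a block for the replicate number Ruvbl1 was also lower in XY than in XO (log2 -1.89, unadjusted p = 0.017). Ino80 averaged 11.2, 12.4 and 11.8 and Srcap 38.3, 61.6 and 37.3 normalized CPM in XX, XO and XY oocytes, and neither passed the test in any contrast with all 9 samples. Without XO1, Srcap was lower in XX than in XO (log2 -0.98, edgeR, unadjusted p = 0.0110) and in XY than in XO (log2 -1.02, unadjusted p = 0.00891). With TMM and without XO1, it was not called in XX against XO.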

How the data were processed

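RNA of 3 XX, 3 XO and 3 XY samples was analysed, grouped by their labels, and the XO column without a number was taken as replicate 1. The deposited counts are 5′ UMIs per gene, which the authors obtained from a strand-aware Hisat2 alignment to GRCm38. The signal that the authors call normalized CPM was checked to be each count column divided by 1 factor per sample, which is relative to the spike-in total and therefore blind to the amount of RNA per spike-in. The deposited batch-regressed log2 values (sva, by the authors) were used without a test. The members and lists were chosen with earlier results of these data known.

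Counts of 28052 genes were tested with edgeR 4.0.16 (quasi-likelihood test, two-sided, filterByExpr by genotype, 1 fit of all 9 samples, spike-in factors of the authors), at an unadjusted p of 0.05 as in the methods, with Benjamini-Hochberg adjustment over 10993 tested genes beside it. Ratios of paralogs were compared by exact permutation tests. Alternatives used DESeq2 1.42.0, limma 3.58.1 on log2 with a pseudocount of 0.5, and sva 3.50.0. The main fit thus differs from the authors' test, which was made in limma and took surrogate variables into its model. Scripts were tested on simulated data. Named besides the members are, per list and contrast, up to 4 genes with the smallest unadjusted p below 0.05 and a mean of at least 10 normalized CPM, and Smarca5, Chd4, Ino80, Srcap, Pbrm1 and Actl6a.

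Deviations of XY and XO samples with the same number correlated across genes at 0.818, 0.272 and 0.766, so these were taken as paired, from the data alone. For XX the numbers were not taken to pair samples, because of -0.427 for XX2 and XO2 and -0.06 for XX2 and XY2. XX1 and XX3 correlated with their numbers at 0.45 and 0.66 in XO and at 0.42 and 0.71 in XY. P-values measure the spread between pools. Depth was 2130145 to 3157338 gene UMIs a sample, and members with 4 to 49 UMIs a sample, such as Smarcb1, carry the largest counting error.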

Additional observations from a re-analysis of the deposited data

How the results depend on the processing

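Counts of members below an unadjusted p of 0.05 are given for lower in XX than XO, lower in XX than XY and lower in XY than XO (1, 0 and 1 in the report), and no setting made a member higher. They were 1, 0 and 1 with TMM, DESeq2 size factors, the DESeq2 test and the replicate block, with or without TMM. They were 2, 0 and 1 without the filter on low counts, 3, 2 and 1 with 1 surrogate variable, 0, 0 and 0 with limma, and 0, 0 and 0 with scaling to spike-in totals, where 18 of 30 member fold changes changed sign. The shares of all tested genes lower in these contrasts were 13.5%, 3.52% and 8.70% without the filter, 10.6%, 4.12% and 5.03% with limma, and 0.482%, 0.364% and 0.664% with spike-in totals. The counts were 6, 1 and 2 without XO1 and XY1, and 2, 0 and 1 with TMM without XO1. Leaving out 1 sample gave 0 to 6, 0 to 1 and 0 to 2, with the 6 without XO1. No sign change met the threshold. Scaling to spike-in totals, the settings without XO1 and XY1 or with TMM without XO1, and the settings for the other remodelers were chosen after seeing the data. The cause of these changes was not tested.

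Of the genes of the other 4 remodeler lists (12, 9, 12 and 12 tested), 5 were lower in XX than XO (16.7% of all tested genes). In XX against XY 2 were lower (4.39%) and 1 higher (1.41%), and 3 were lower in XY than XO (8.24%). Lower in these contrasts were 11, 3 and 6 without the filter (13.5%, 3.52% and 8.70% of all genes then tested). They were 14, 7 and 8 with a surrogate variable (32%, 17.4% and 20.7%) and 1, 0 and 0 with spike-in totals (0.482%, 0.364% and 0.664%). Without XO1 and XY1 they were 18, 7 and 9 (37.6%, 11.9% and 25.5%). With TMM without XO1 they were 10, 2 and 8 (21.9%, 5.32% and 20.5%), and with DESeq2 5, 1 and 3 (9.64%, 2.62% and 7.19%). Higher in XX than XO was 1 with a surrogate variable (6.10% of all genes), the block (1.91%) or the block with TMM (6.64%). It was also 1 with spike-in totals (2.64%) or without XO1 and XY1 (4.10%), and 4 with TMM without XO1 (13.4%). Higher in XY than XO was 1 with a surrogate variable (7.71%), DESeq2 (3.04%) or without XO1 and XY1 (2.38%), and 3 with TMM without XO1 (13.1%). Without 1 sample, 2 to 17, 1 to 4 and 0 to 12 were lower and 0 to 1 higher in each contrast, the most without XO1. In that setting 34.2%, 8.52% and 27.6% of all genes were lower.

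With the replicate block in the fit of all 9 samples, the log2 fold change of Smarce1 for XY against XO was -1.62 (edgeR, unadjusted p = 0.0108). The numbers were taken to pair XY and XO only, so this block also draws on XX samples not taken as paired. The genes of the other lists lower in XY became 5, beside 14.1% of all tested genes. The block changed no call of a member. Paired by replicate number, the ratios of Smarcc2 to Smarcc1, Arid1b to Arid1a and Arid2 to Arid1a differed between XY and XO by -0.26, -0.22 and 0.26 on the log2 scale (exact sign permutation, p = 0.75, 0.75 and 0.5, where 3 pairs allow at least 0.25), and this pairing of the ratios was added after seeing the data.

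Uncalled log2 fold changes that turned positive were, with TMM, Smarca4 0.018, Smarcc1 0.27, Arid1a 0.049 and Brd7 0.015 for XX against XO, Brd7 0.11 for XX against XY, and Smarca2 0.095 and Arid2 0.11 for XY against XO. With DESeq2 size factors they were Smarcc1 0.23, Arid1a 0.0071, Brd7 0.091, Smarca2 0.071 and Arid2 0.085 in the same contrasts, and with the DESeq2 test 0.23, 0.0096, 0.090, 0.071 and 0.086. With block and TMM they were Smarcc1 0.26, Arid1a 0.098, Brd7 0.039 and 0.13, Smarca2 0.11, Smarcc2 0.0048 and Arid2 0.13. With a surrogate variable they were Smarca2 0.097, Smarcb1 0.15 and Smarcc2 0.082 for XY against XO. Leaving out 1 sample turned the sign of 9 values. For XX against XY the ranges were Arid1a -0.079 to 0.12, Arid1b -0.047 to 0.26, Brd7 -0.17 to 0.013, Smarcb1 -0.91 to 0.032 and Smarce1 -0.67 to 0.076. For XX against XO it was Smarcc1 -0.17 to 0.047, and for XY against XO they were Smarca2 -0.41 to 0.12, Smarcc2 -0.66 to 0.27 and Arid2 -0.28 to 0.084.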
